A study of Mus musculus with 7 samples.

Results

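Beta-cell disallowed genes are housekeeping or growth-related genes that most tissues express and that mature insulin-producing cells keep at a very low level. The 10 genes described here were Ldha, Slc16a1, Hk1, Hk2, Acot7, Oat, Lmo4, Zfp36l1, Maf and Yap1. They were chosen by name, through the gene symbol in the array platform's annotation, and all 10 were measured among 22180 genes. Expression was measured on 7 whole-transcript arrays of mouse pancreatic islets isolated with collagenase. The 4 arrays labelled Gata6 KO were of Gata6 flox/flox mice with a Pdx1-Cre transgene, whose promoter is active in the pancreatic epithelium, so acinar and ductal cells can lose the floxed gene as well as islet cells. The 3 control arrays were of Gata6 flox/flox mice without Cre, so both groups share the floxed alleles and an effect of Cre itself cannot be told apart from one of Gata6. Each array was a pool of islets from 3 mice aged 2 months, and p-values cover the spread between such pools.

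Mature beta cells couple glucose to insulin release through mitochondrial oxidation of pyruvate, and a few ordinary genes would disturb that coupling if they were active. Lactate dehydrogenase A and the plasma membrane carrier encoded by Slc16a1 would divert pyruvate to lactate or let circulating pyruvate and lactate in during exercise. High-affinity hexokinases would let beta cells respond to low glucose. Growth regulators such as Yap1, a co-activator restrained by the Hippo kinases, are switched off when endocrine cells form. Silencing in beta cells is known to involve DNA methylation and Polycomb marks at the promoters and, for Slc16a1, microRNAs of the miR-29 family.

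The promoters are shown because several members moved together between the groups and because GATA factors bind short DNA words. Sequences are from RefSeq on build GRCm38.p6 and cover the 250 bases before an annotated start, written 5′ to 3′ on the gene's strand. They lie at chr3:104638414-104638663 on the plus strand for Slc16a1, chr7:46845554-46845803 on the plus strand for the first of 2 starts of Ldha, chr6:82774455-82774704 on the minus strand for Hk2 and chr9:8004597-8004846 on the minus strand for Yap1. Capitals mark every match, on either strand, to the GATA words AGATAA, its variant AGATAG, the word TGATAA and its variant TGATAG, to the hypoxia response core ACGTG, to the E-box CACGTG, which contains that core, and to the TEAD word GGAATG.
Slc16a1: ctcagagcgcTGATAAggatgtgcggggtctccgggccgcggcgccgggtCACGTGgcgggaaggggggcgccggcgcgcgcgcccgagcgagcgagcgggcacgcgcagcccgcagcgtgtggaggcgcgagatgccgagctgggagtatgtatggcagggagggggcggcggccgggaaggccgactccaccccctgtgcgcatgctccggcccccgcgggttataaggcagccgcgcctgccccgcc
Ldha: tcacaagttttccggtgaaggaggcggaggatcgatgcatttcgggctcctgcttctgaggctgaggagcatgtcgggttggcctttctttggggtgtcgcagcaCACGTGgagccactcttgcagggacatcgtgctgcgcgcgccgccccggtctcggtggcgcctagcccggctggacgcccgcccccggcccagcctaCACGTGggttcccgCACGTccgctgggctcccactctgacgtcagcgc
Hk2: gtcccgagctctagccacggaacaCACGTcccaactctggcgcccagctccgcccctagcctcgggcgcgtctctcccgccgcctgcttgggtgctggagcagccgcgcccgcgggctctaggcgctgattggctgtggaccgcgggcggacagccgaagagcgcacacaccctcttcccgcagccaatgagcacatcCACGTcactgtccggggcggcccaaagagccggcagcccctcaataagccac
Yap1: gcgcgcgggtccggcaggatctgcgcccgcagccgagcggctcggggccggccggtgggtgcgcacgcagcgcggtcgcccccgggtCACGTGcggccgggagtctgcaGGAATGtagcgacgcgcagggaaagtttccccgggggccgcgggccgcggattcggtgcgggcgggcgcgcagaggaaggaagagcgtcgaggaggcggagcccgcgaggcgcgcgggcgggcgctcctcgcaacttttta

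The table held 13 such windows for 9 of the members, and Maf had no entry. The 3 windows of Lmo4 include 2 that overlap. A GATA word was present in 1 of the 13 windows, that of Slc16a1, while 26.5% of 32851 promoter windows in the table held one. The E-box was present in the windows of Slc16a1, Ldha and Yap1, against 6.02% of all windows, and the hypoxia core in 6 of the 13 windows, among them the overlapping pair of Lmo4, against 16.6%. The TEAD word was found in the windows of Oat and Yap1, against 12.6%. The observed to expected ratio of CpG pairs was above the median of all windows (0.373) in 11 of the 13, the exceptions being Acot7 and the first of 2 starts of Hk1. It was highest for Yap1, at 1.25. The E-box and the hypoxia core contain a CpG pair and the GATA words do not, and the shares of all windows were not matched for CpG content. A match describes the letters of these windows and not the binding of a factor.

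The mature miR-29 microRNAs are shown because they restrain Slc16a1 in mouse beta cells. Their seeds, bases 2 to 8, are in capitals and are the same in all 3. The sequences are from RefSeq on build GRCm38.p6, at chr6:31062673-31062694 on the minus strand for miR-29a, chr1:195037091-195037113 on the plus strand for a copy of miR-29b and chr1:195037600-195037621 on the plus strand for miR-29c.
mmu-miR-29a-3p: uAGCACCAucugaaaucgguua
mmu-miR-29b-3p: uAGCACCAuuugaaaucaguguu
mmu-miR-29c-3p: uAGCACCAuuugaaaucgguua
The hairpin genes Mir29a and Mir29b-1, looked up after the values were seen, averaged 0.50 and 0.89 log2 units on the arrays labelled Gata6 KO, against 0.29 and 0.51 on the control arrays. Neither passed the test described next (adjusted p = 0.374 and adjusted p = 0.0671, limma), and signals this low give no usable level.

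All values are log2 signals, on which a difference of 1 is a doubling, and a gene passed when its limma p, adjusted by Benjamini and Hochberg's method across the 22180 genes, was under 0.05. Gata6 itself showed no loss, with 5.41, 5.35, 5.34 and 5.01 on the arrays labelled Gata6 KO and 4.60, 4.80 and 4.83 on the control arrays (difference 0.54, SE 0.20, adjusted p = 0.0622). It passed as higher in 5 alternatives (adjusted p from 0.0312 to 0.0495), and its difference was 0.31 after centring. Where its probes lie relative to the floxed part is not stated here, and a probe set outside that part would check nothing, and directions below are those of the labels. Array medians ran from 1.89 to 2.11 on the arrays labelled Gata6 KO and from 1.72 to 1.78 on the control arrays. The median difference of all genes was therefore 0.17, and differences are given both as measured and less this shift. Of the genes that passed, 70.2% were higher; this share was 40.3% with array medians set equal and 49.6% when quantile normalization was repeated. Beta-cell markers averaged 5.37 or more on every array, and acinar markers, which are not islet genes, 9.74 or more. The array labelled Gata6 KO 3 stood apart in each endocrine marker list, with means of 5.37 for beta, 5.80 for alpha and 5.39 for delta and PP cells, where the other 3 of its group had 6.43 to 6.99, 7.14 to 7.43 and 7.05 to 7.78. Without it the same 6 members passed.

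Of the 10 disallowed genes 6 were higher on the arrays labelled Gata6 KO and 0 were lower. Among all genes 24.7% passed in either direction, 17.4% higher and 7.36% lower. The 6 were the lactate and pyruvate carrier gene Slc16a1, both hexokinase genes Hk1 and Hk2, the thioesterase gene Acot7, the LIM-domain cofactor gene Lmo4 and Yap1. Their rises lay between 1.65-fold for Acot7 and 2.43-fold for Lmo4. The other 4, Ldha, Oat, Zfp36l1 and Maf, did not pass. The median difference over the 10 was 0.77, or 0.61 less the shift. For 7 members, the 6 and Maf, every array labelled Gata6 KO lay above every control array, and 0 members were separate the other way. Among all genes the groups did not overlap for 34.3%, in 24.4% with the arrays labelled Gata6 KO higher and in 9.96% with them lower. Slc16a1, Hk2, Lmo4 and Yap1 passed in all 19 other ways of processing the data. After centring 4 of the 10 members were higher, against 8.43% of all genes, and after quantile normalization 4, against 11%. These settings ended the calls of Hk1 (adjusted p = 0.128 and adjusted p = 0.130) and Acot7 (adjusted p = 0.125 and adjusted p = 0.0939). In bulk islet RNA, fewer cells of a type cannot be told apart from less RNA per cell.

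**Figure D1:**
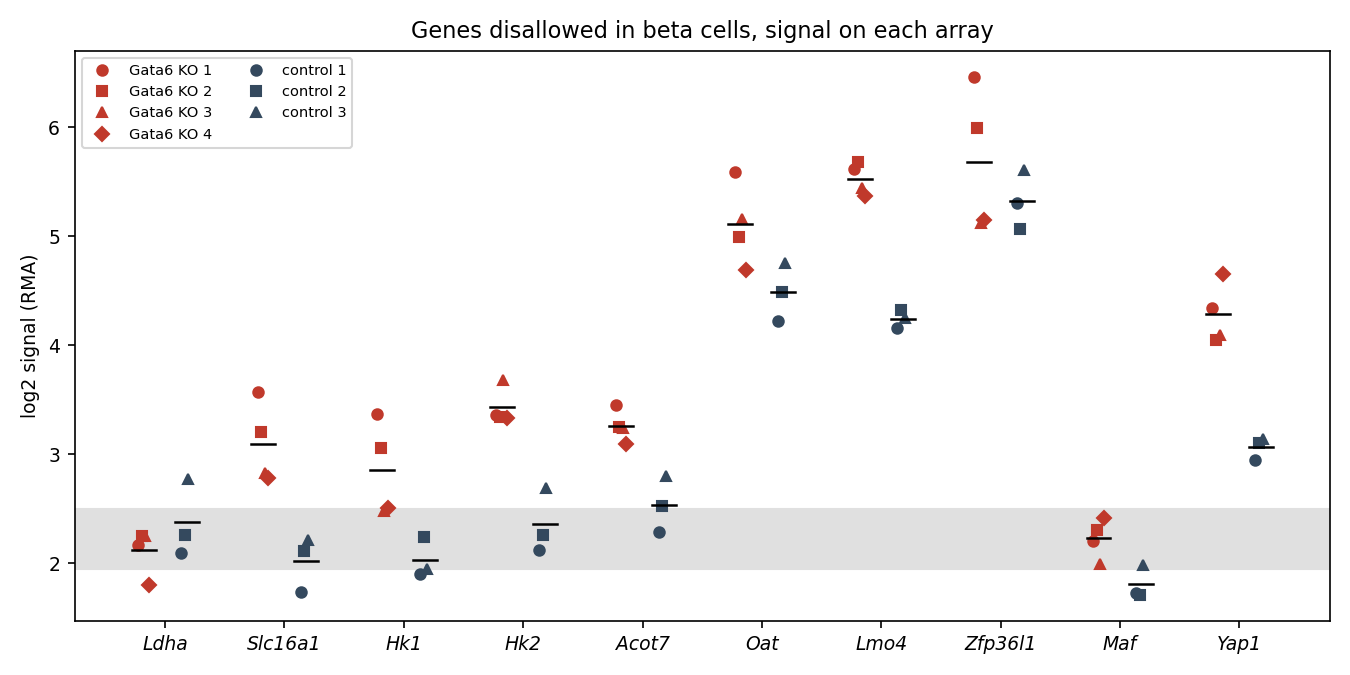
Log2 signal (y axis) of each of the 10 genes (x axis) on the arrays labelled Gata6 KO (red, left of each pair) and the control arrays (dark blue, right), with a symbol per replicate number and a black line at each mean. The grey band spans 1.94 to 2.50, the range over arrays of the 95th percentile of 1105 olfactory receptor genes; Lmo4 and Yap1 lie above it with separate groups, and Ldha lies largely within it.

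**Figure D2:**
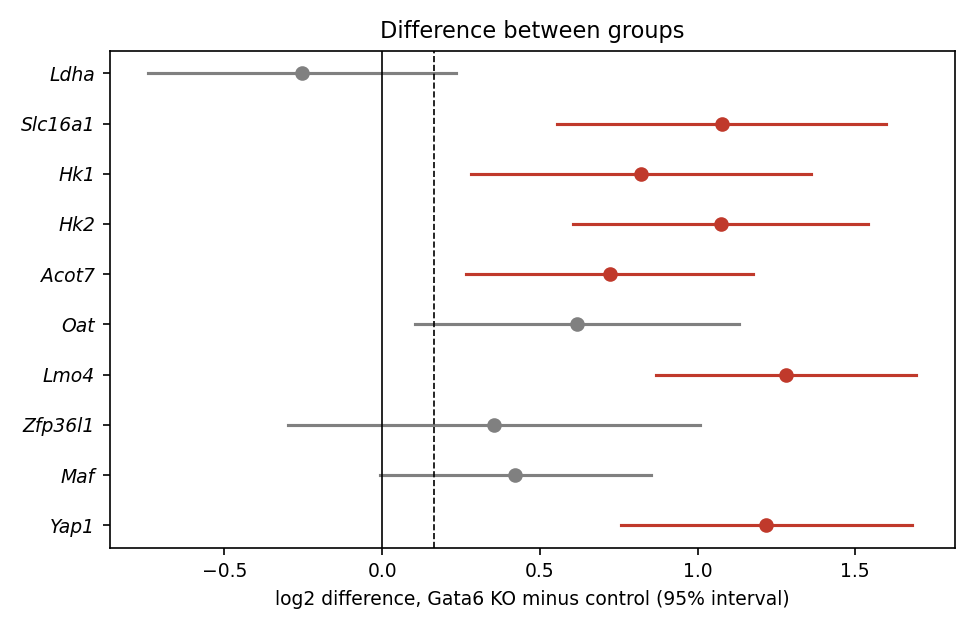
Log2 difference, Gata6 KO minus control (x axis), of each gene (y axis) with its 95% interval from limma. Red marks the 6 genes that passed the test and grey the other 4; the solid line is 0 and the dashed line the median of all genes, 0.17.

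Slc16a1 encodes MCT1, the carrier that moves lactate and pyruvate across the plasma membrane. It measured 3.57, 3.20, 2.83 and 2.78 on the arrays labelled Gata6 KO, against 1.73, 2.11 and 2.21 on the control arrays. Every array of the first group lay above every array of the second. The difference was 1.08 (SE 0.24, adjusted p = 0.00566), or 0.91 less the shift. The fold, 2.11, is uncertain because control array 1 lay below the gauge of low signal described further on. Leaving out 1 array at a time gave differences from 0.92 to 1.18 and adjusted p from 0.00383 to 0.0413.

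Ldha encodes the enzyme that turns pyruvate into lactate. It measured 2.17, 2.25, 2.25 and 1.80 on the arrays labelled Gata6 KO and 2.09, 2.26 and 2.77 on the control arrays, and the groups overlapped. The difference was -0.25 with a 95% interval from -0.74 to 0.23 (adjusted p = 0.444), at a signal near the low end of the scale. Control array 3 held the highest value, and without it the difference was -0.05. Ldha was the only member with a negative difference, under each of the 19 alternatives as well.

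Among 19 other genes of lactate and pyruvate handling, 6 were higher and 2 lower, with a median of 0.14 that turned to -0.09 after centring. Ldhb, the dehydrogenase subunit that favours pyruvate, had means of 2.50 ± 0.27 (arrays labelled Gata6 KO, SD, n = 4) and 2.55 ± 0.12 (SD, n = 3) on the control arrays and did not pass (adjusted p = 0.899). The lactate exporter gene Slc16a3 did not pass either, with a difference of 0.16 (SE 0.24, adjusted p = 0.669). Bsg, whose protein escorts the carrier of Slc16a1 to the membrane, had a difference of -0.13 (SE 0.20, adjusted p = 0.683). The differences of Ldhb, Slc16a3 and Bsg changed sign in some alternatives. A related carrier gene, Slc16a7 (MCT2), rose, averaging 5.34 ± 0.29 (SD, n = 4) against 4.05 ± 0.39 (SD, n = 3) on the control arrays (difference 1.30, SE 0.24, adjusted p = 0.00155). The 2 lower genes were Slc16a10, which carries aromatic amino acids and not lactate, at 4.16 ± 0.50 (SD, n = 4) against 6.81 ± 0.47 (SD, n = 3) on the control arrays, and the carrier escort gene Emb, at 4.87 ± 1.08 (SD, n = 4) against 7.06 ± 0.61 (SD, n = 3) on the control arrays. The Emb difference was -2.20, and -1.15 as the mean of its probe sets.

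Hk2 encodes the inducible high-affinity hexokinase of muscle and growing cells. It measured 3.36, 3.34, 3.68 and 3.33 on the arrays labelled Gata6 KO, against 2.12, 2.26 and 2.69 on the control arrays. All 4 arrays of the first group lay above the 3 others. The difference was 1.07 (SE 0.22, adjusted p = 0.00297), a 2.10-fold rise, or 0.91 less the shift.

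Hk1, the widely expressed high-affinity hexokinase gene, measured 3.37, 3.05, 2.47 and 2.50 on the arrays labelled Gata6 KO, against 1.90, 2.24 and 1.94 on the control arrays. The groups did not overlap, but the spread on the arrays labelled Gata6 KO (SD 0.44, n = 4) was larger than that of Hk2 (SD 0.17, n = 4). The difference was 0.82 (SE 0.25, adjusted p = 0.0288), or 0.65 less the shift. The fold, 1.77, is uncertain because control arrays 1 and 3 lay at or below that gauge. The call was lost without either of the arrays labelled Gata6 KO 1 (adjusted p = 0.0648) and Gata6 KO 2 (adjusted p = 0.0689). It was also lost when any control array was removed, with an adjusted p of 0.111 for array 1, 0.0502 for array 2 and 0.0919 for array 3. Its differences in these fits stayed between 0.65 and 0.93.

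Of 10 other genes of glucose entry and phosphorylation, 3 were higher and 3 lower, with a median of 0.19. The 3 higher genes were Hk3 (2.36 against 1.36 on the control arrays), Slc2a3 (1.78 against 1.25) and Pfkfb3 (2.34 against 1.58). On every control array each lay below the gauge of low signal described further on, and Slc2a3 did on every array. The sizes of these rises are uncertain. The 3 lower genes were Slc2a2, the glucose transporter of mouse beta cells, at 5.92 ± 1.40 (SD, n = 4) against 9.20 ± 0.26 (SD, n = 3) on the control arrays, G6pc2, the islet glucose-6-phosphatase, at 7.40 ± 1.03 against 10.36 ± 0.30 on the control arrays, and Gpd2, an enzyme of the mitochondrial glycerol phosphate shuttle, at 4.32 ± 0.16 against 5.43 ± 0.10 on the control arrays. The array labelled Gata6 KO 3 was the lowest for Slc2a2, at 3.87, and without it the Slc2a2 difference was -2.59, against -3.27 with it. Their adjusted p-values were 5.86e-04, 1.88e-04 and 0.00118. After centring, 1 gene of this list was higher and 3 were lower.

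Acot7 encodes a cytosolic enzyme that cleaves long-chain acyl-CoA. It measured 3.45, 3.25, 3.24 and 3.10 on the arrays labelled Gata6 KO, against 2.29, 2.53 and 2.80 on the control arrays, and the groups did not overlap. The difference was 0.72 (SE 0.21, adjusted p = 0.0236), a 1.65-fold rise, or 0.56 less the shift. Removing control array 1 or 2 ended the call, with an adjusted p of 0.121 and 0.0768. Of 13 other acyl-CoA thioesterase genes 1 was higher and 0 lower, with a median of 0.18, close to the 0.17 of all genes. Many of them averaged below the gauge of low signal, described further on, in both groups, so these counts say little about them. After centring, 2 of these 13 were lower and 0 higher. The 1 higher gene was Acot9, of mitochondria, at 2.53 ± 0.40 (SD, n = 4) against 1.45 ± 0.65 (SD, n = 3) on the control arrays (adjusted p = 0.0175). Its groups overlapped, and control arrays 1 and 3 and the arrays labelled Gata6 KO 1 and 4 lay below the same gauge. The Acot9 call ended after centring (adjusted p = 0.0530) and on removal of control array 1 (adjusted p = 0.105) or 3 (adjusted p = 0.0837).

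Oat, the mitochondrial enzyme gene that interconverts ornithine and glutamate semialdehyde, measured 5.59, 4.99, 5.16 and 4.69 on the arrays labelled Gata6 KO and 4.22, 4.48 and 4.76 on the control arrays. The groups overlapped through the array labelled Gata6 KO 4 and control array 3. The difference was 0.62 (95% interval 0.11 to 1.13, adjusted p = 0.0736) and did not pass. It passed on removal of the array labelled Gata6 KO 4, with a difference of 0.76 (adjusted p = 0.0302). Of 12 other genes of ornithine, proline and polyamine metabolism, 7 were higher and 1 lower, with a median of 0.77. They ranged from -1.18 for Glul, the glutamine synthetase gene, to 3.18 for Sat1. After centring, 4 were higher and 2 lower. Sat1, which acetylates polyamines, averaged 5.76 ± 0.50 (arrays labelled Gata6 KO, SD, n = 4) and 2.58 ± 0.51 (SD, n = 3) on the control arrays (difference 3.18, SE 0.30, adjusted p = 8.87e-06). Odc1, which makes putrescine from ornithine, averaged 6.66 ± 0.22 (SD, n = 4) against 4.39 ± 0.39 (SD, n = 3) on the control arrays. Azin1, an activator of the Odc1 enzyme, averaged 6.72 ± 0.22 against 5.54 ± 0.14 on the control arrays.

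Lmo4 had the lowest p of the 10 genes, ranking 660 of 22180. It encodes a LIM-only protein that binds the cofactor LDB1 in competition with LIM-homeodomain factors. It measured 5.62, 5.68, 5.44 and 5.36 on the arrays labelled Gata6 KO, against 4.16, 4.32 and 4.25 on the control arrays. The gap between the groups was wider than the whole spread within either. The difference was 1.28 (SE 0.19, adjusted p = 3.57e-04), a 2.43-fold rise, or 1.11 less the shift. Of 8 related factors and partners 2 were higher and 2 lower, or 1 higher and 3 lower after centring. Lmo2, a LIM-only gene of blood and endothelial cells, averaged 4.18 ± 0.23 (SD, n = 4) against 2.73 ± 0.09 (SD, n = 3) on the control arrays (adjusted p = 2.48e-04). Isl1, a LIM-homeodomain factor of all islet endocrine cells, fell to 3.82 ± 0.43 (arrays labelled Gata6 KO, SD, n = 4), against 5.71 ± 0.18 (SD, n = 3) on the control arrays (adjusted p = 1.06e-04). Ldb1 had a difference of -0.55 (SE 0.23) and did not pass (adjusted p = 0.0916), although it did after centring (adjusted p = 0.0310) and in some other alternatives.

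Yap1 measured 4.34, 4.05, 4.09 and 4.65 on the arrays labelled Gata6 KO, against 2.95, 3.10 and 3.14 on the control arrays. The groups lay far apart relative to their SDs of 0.28 (arrays labelled Gata6 KO, n = 4) and 0.10 (control arrays, n = 3). The difference was 1.22 (SE 0.22, adjusted p = 0.00115), a 2.33-fold rise, or 1.05 less the shift. Of 17 other genes of the Hippo pathway core 4 were higher and 0 lower, with a median of 0.31, and 1 was higher after centring. Wwtr1, the Yap1 paralog known as TAZ, averaged 4.05 ± 0.31 (SD, n = 4) against 2.92 ± 0.14 (SD, n = 3) on the control arrays (difference 1.14, SE 0.22, adjusted p = 0.00241). Tead2 and Tead4, which encode DNA-binding partners, passed as higher, with differences of 0.64 (adjusted p = 0.0349) and 0.77 (adjusted p = 0.0244). Both calls ended after centring (adjusted p = 0.187 and adjusted p = 0.0975). Tead1, another such partner, had a difference of -0.29 (SE 0.26) and did not pass (adjusted p = 0.439). Control array 1 was the highest, at 4.24, and without it the difference was 0.03.

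Of 13 genes known as Yap1 targets in other cells, 3 were higher and 1 lower, with a median of 0.49. These counts are near the shares of all genes, 17.4% higher and 7.36% lower. After centring, 1 was higher and 1 lower. Some of the 13 also belong to the Hippo pathway core list above. Ankrd1 averaged 2.18 ± 0.17 (arrays labelled Gata6 KO, SD, n = 4) and 1.19 ± 0.14 (SD, n = 3) on the control arrays (adjusted p = 0.00204). On every array its signal lay below the gauge of low signal described further on, so the size of its rise is uncertain. Ccn1 (Cyr61), also an immediate-early gene, fell to 3.69 ± 0.54 (SD, n = 4), against 4.74 ± 0.44 (SD, n = 3) on the control arrays (adjusted p = 0.0190), a call lost without control array 1 (adjusted p = 0.114). Ccn2 (Ctgf) had a difference of 0.66 (SE 0.24, adjusted p = 0.0594) and did not pass, while it did in some alternatives, one being the removal of the array labelled Gata6 KO 4, with an adjusted p of 0.0112.

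Zfp36l1 encodes a protein that binds AU-rich elements and speeds mRNA decay. It measured 6.46, 5.99, 5.12 and 5.15 on the arrays labelled Gata6 KO and 5.30, 5.07 and 5.61 on the control arrays. The arrays labelled Gata6 KO 1 and 2 lay above all others, and 3 and 4 lay within the control range. The difference was 0.35 (95% interval -0.30 to 1.01, adjusted p = 0.425). Of the 3 other members of the family 0 were higher and 2 were lower. Zfp36l3 had a difference of 0.27 (SE 0.22, adjusted p = 0.385), at a signal below the gauge described further on. Zfp36 fell to 3.72 ± 0.55 (SD, n = 4), against 6.44 ± 0.47 (SD, n = 3) on the control arrays (adjusted p = 2.96e-05). Zfp36l2 measured 4.61 ± 0.33 (SD, n = 4) against 5.33 ± 0.34 (SD, n = 3) on the control arrays and passed in the lower direction (adjusted p = 0.0420), which it did not without control array 3 (adjusted p = 0.186), control array 1 (adjusted p = 0.0995) or any of the arrays labelled Gata6 KO 2, 3 and 4 (adjusted p = 0.0837, adjusted p = 0.0923 and adjusted p = 0.0649).

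Maf encodes c-MAF, a large MAF factor of alpha cells, lens and immune cells. It measured 2.21, 2.30, 1.99 and 2.41 on the arrays labelled Gata6 KO, against 1.72, 1.71 and 1.98 on the control arrays. The array labelled Gata6 KO 3 and control array 3 nearly met, at 1.99 and 1.98. The difference was 0.42 (95% interval -0.0071 to 0.85, adjusted p = 0.140) and did not pass in any of the alternatives. Of 5 other Maf genes 0 were higher and 1 was lower, the beta-cell factor Mafa, at 5.77 ± 0.19 (SD, n = 4) against 6.76 ± 0.28 (SD, n = 3) on the control arrays (adjusted p = 0.00363).

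Some members were measured by further probe sets, which did not always move alike. In a fit over all 41345 probe sets, of which 15.8% passed, the second probe set of Zfp36l1 gave 2.46, 2.36, 2.52 and 2.59 on the arrays labelled Gata6 KO, against 1.36, 1.45 and 0.86 on the control arrays. These groups were far apart, with a difference of 1.26 (SE 0.20, adjusted p = 0.00415), against 0.35 (SE 0.34) for the brighter probe set used above. The mean of both probe sets gave a difference of 0.81 (adjusted p = 0.0143), so the Zfp36l1 call depends on the probe set. The second probe set lay below the gauge of low signal, described further on, on every control array. It lay above that gauge on the arrays labelled Gata6 KO, and the size of its difference is uncertain. The second Yap1 probe set ran from 0.58 to 1.24 on the arrays labelled Gata6 KO and from 0.65 to 0.87 on the control arrays. The groups overlapped there, and every value lay below that gauge. The mean of both Yap1 probe sets still passed with a difference of 0.71 (adjusted p = 0.0205). The second probe set of Maf had a difference of 0.10 (SE 0.21). A probe set that Hk1 shares with the antisense gene Hk1os had a difference of 0.15 (SE 0.21), and its signal cannot be assigned to either gene.

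**Figure D3:**
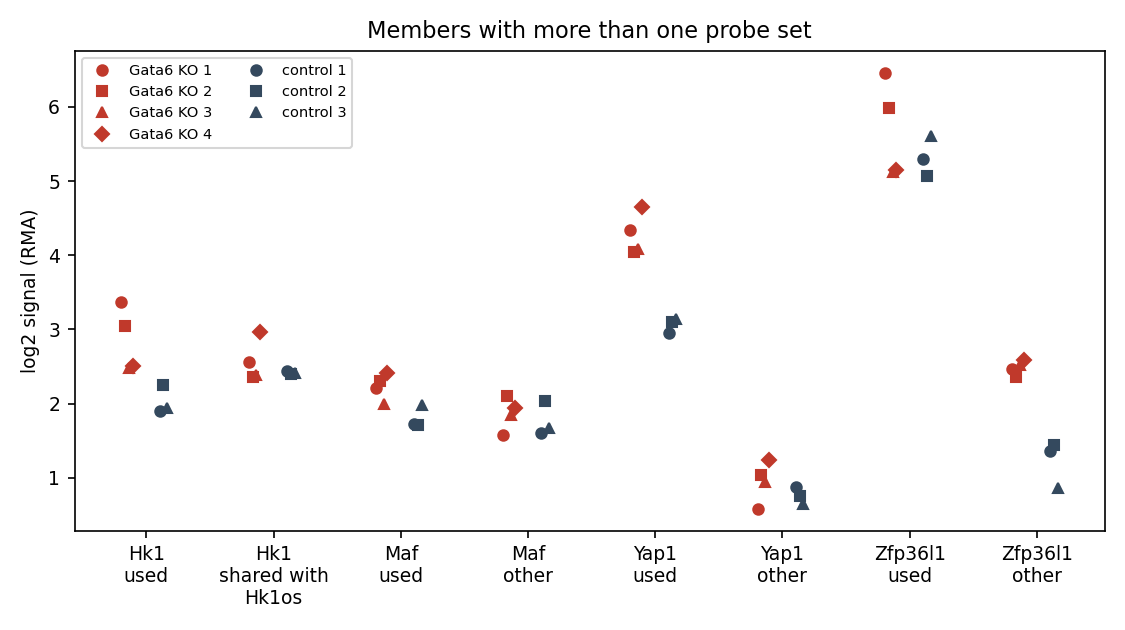
Log2 signal (y axis) of the probe sets (x axis) of the 4 members with more than 1, on the arrays labelled Gata6 KO (red, left of each pair) and the control arrays (dark blue, right). The groups of Zfp36l1 overlap on the brighter probe set, marked used, and lie apart on the other, from 2.36 to 2.59 on the arrays labelled Gata6 KO against 0.86 to 1.45 on the control arrays. Those control values lie below the gauge of low signal.

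Several members were close to the low end of the scale. No detection calls were used, so olfactory receptor genes, which islets are not known to use widely, served as a gauge chosen after the values were seen. The 95th percentile of 1105 such genes ran from 2.10 to 2.50 on the arrays labelled Gata6 KO and from 1.94 to 2.02 on the control arrays, and their median difference was 0.10. On the arrays labelled Gata6 KO 8 of the 10 members lay above that percentile on every array, and on the control arrays 7 did. Slc16a1 exceeded it on 4 of 4 arrays labelled Gata6 KO and 2 of 3 control arrays, and Hk1 on 4 of 4 against 1 of 3 control arrays. Maf exceeded it on 2 of 4 arrays labelled Gata6 KO and 0 of 3 control arrays, and Ldha on 2 of 4 and, among the control arrays, 3 of 3. The missing calls of Ldha and Maf therefore say little about their true levels.

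The members did not share one order among the arrays labelled Gata6 KO. Slc16a1, Hk1, Acot7, Oat and Zfp36l1 were highest on Gata6 KO 1, Ldha and Lmo4 on Gata6 KO 2, Hk2 on Gata6 KO 3, and Maf and Yap1 on Gata6 KO 4. The array labelled Gata6 KO 4 held the lowest value of the group for 6 members. Among the control arrays, array 3 held the highest value for 8 of the 10, all but Hk1 and Lmo4.

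Markers of other cell types differed between the same arrays. Over the 12 measured acinar markers, of which 7 were higher and 0 lower, the mean signal was 10.64 to 10.75 on the arrays labelled Gata6 KO and 9.74 to 9.86 on the control arrays. Of 10 mesenchymal markers 7 were higher and 0 lower, with list means of 3.89 to 5.69 against 3.23 to 4.13 on the control arrays, and the array labelled Gata6 KO 4 lay within the control range. Of 6 lymphoid markers 3 were higher and 0 lower, with list means of 2.67 to 3.60 against 1.80 to 1.93 on the control arrays. Of 8 macrophage markers 2 were higher and 0 lower, and the list means of 2.72 to 4.27 overlapped the 2.63 to 2.91 of the control arrays. Of 6 ductal markers 2 were higher and 1 lower, with means of 3.88 to 4.13 against 3.43 to 3.95 on the control arrays. Of 8 endothelial markers 4 were lower and 0 higher, with means of 3.78 to 4.55 against 4.87 to 5.32 on the control arrays. Alpha-cell markers were lower in 3 of 3, with list means of 5.80 to 7.43 against 8.74 to 8.97 on the control arrays, and delta and PP markers in 3 of 4, with 5.39 to 7.78 against 9.09 to 9.47 on the control arrays. All 10 beta-cell markers were lower, with list means of 5.37 to 6.99 on the arrays labelled Gata6 KO and 8.51 to 9.07 on the control arrays. Their part in the rises of the disallowed genes was not tested. On Gata6 KO 4, 6 members were lowest of the group and Maf and Yap1 were highest. The mesenchymal, endothelial and macrophage means were the lowest there and the beta, alpha, delta and PP, and acinar means the highest. The ductal and lymphoid means, 3.92 and 2.93, were neither. Whether these orders are related was not tested.

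**Figure D4:**
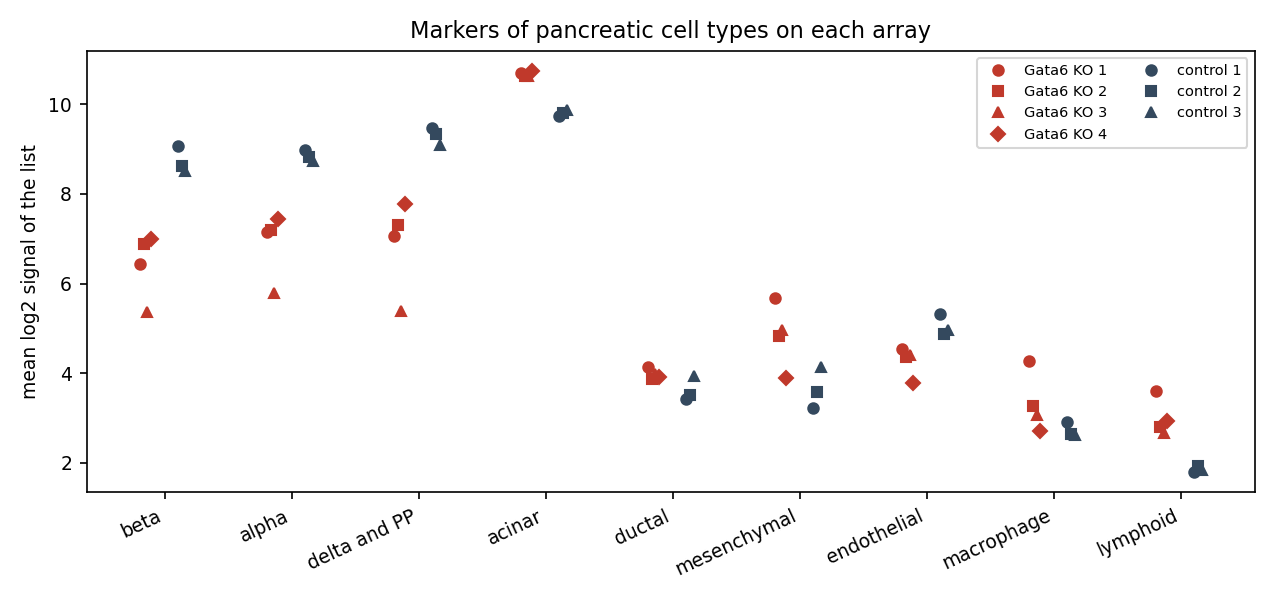
Mean log2 signal (y axis) of the measured markers of 9 cell types (x axis) on the arrays labelled Gata6 KO (red, left of each pair) and the control arrays (dark blue, right). Beta-cell means are 5.37 to 6.99 on the arrays labelled Gata6 KO and 8.51 to 9.07 on the control arrays, and acinar means are 10.64 to 10.75 on the arrays labelled Gata6 KO against 9.74 to 9.86 on the control arrays.

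A further 18 genes named as disallowed in earlier work on beta cells were measured, chosen with earlier results of these data known, so their direction is not independent evidence. Of these 13 were higher and 0 lower, with a median of 1.04, or 0.87 less the shift. After centring, 8 were higher and 0 lower, and 11 and 0 after quantile normalization. Igfbp4, a binding protein of insulin-like growth factors, averaged 5.66 ± 0.50 (arrays labelled Gata6 KO, SD, n = 4) and 3.94 ± 0.27 (SD, n = 3) on the control arrays (difference 1.71, SE 0.27). Cd302, a C-type lectin receptor gene, averaged 4.13 ± 0.15 against 2.48 ± 0.12 on the control arrays (difference 1.66, SE 0.20), and Ndrg2, a stress-related gene, 5.31 ± 0.30 against 3.76 ± 0.22 on the control arrays (difference 1.54, SE 0.22). These 3 had the lowest p of the list. Pdgfra, the platelet-derived growth factor receptor that also marks mesenchyme, averaged 3.28 ± 0.55 against 2.06 ± 0.26 on the control arrays (difference 1.22, SE 0.28), and the chemokine gene Cxcl12 4.13 ± 0.46 against 2.75 ± 0.30 on the control arrays. Rest, a repressor of neuronal and endocrine genes, averaged 3.31 ± 0.42 against 2.12 ± 0.22 on the control arrays (difference 1.19, SE 0.25, adjusted p = 0.00369). The fibroblast growth factor gene Fgf1 had a difference of -0.06 (SE 0.26) and did not pass.

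**Figure D5:**
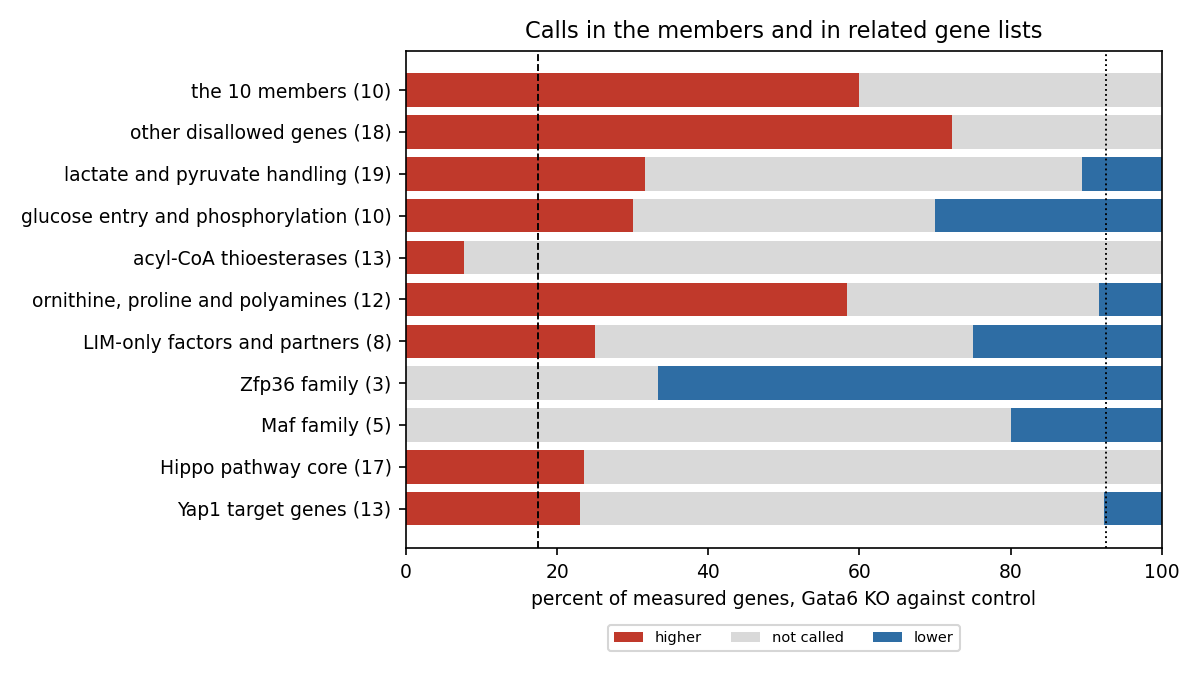
Percent of the measured genes of each list (y axis, number of genes in brackets) that were higher (red), not called (grey) or lower (blue) on the arrays labelled Gata6 KO than on the control arrays. The dashed line marks 17.4%, the share of all genes called higher, and the dotted line leaves 7.36%, the share called lower, to its right; the 10 members have 6 higher and 0 lower.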

How the data were processed

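The deposited log2 values were made by the authors with RMA, per the submitters' processing notes, which also name Transcriptome Analysis Console, both without versions. No source used here gives the genome build. Of 41345 probe sets 23521 had 1 gene symbol in the platform annotation, 1814 had several and 16010 were unnamed here. Per gene the probe set with the highest mean was used, which left 22180 genes. Groups were taken from the sample titles and compared with limma 3.58.1 in R 4.3.3 (lmFit, eBayes with trend), two-sided, with Benjamini-Hochberg adjustment, and the fit was tested on simulated data. SEs and intervals are moderated. The number of arrays limits the precision. The members and lists were chosen with earlier results of these data known. Named genes were the members, Gata6, fixed counterparts and up to 3 genes with the lowest p per list. The called genes of the further disallowed list counted as named too. Genes outside this rule (Mir29a, Mir29b-1, Fgf1, Glul, Hk3, Slc2a3 and Pfkfb3) were chosen after their values were seen. The fit was repeated in 17 ways (scaling, low-signal filter, probe sets, eBayes settings, array weights, replicate block, Xist block, threshold, each array left out) and in 2 more chosen after the values were seen. Sequences were taken from RefSeq tables. Figures were drawn with matplotlib 3.10.9.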

Additional observations from a re-analysis of the deposited data

Results flagged for a closer look

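In 4 of the 59 named genes 1 array labelled Gata6 KO stood apart from the other 3 of its group by Dixon's criterion, which chance meets in about 1 of 20 groups. Hk2 was 3.68 on the array labelled Gata6 KO 3, above the other 3, which lay between 3.33 and 3.36. On the same array Lmo2 was high at 4.53 and Emb low at 3.26. Gata6 was 5.01 on the array labelled Gata6 KO 4, below the other 3. Without Gata6 KO 3 the difference of Hk2 was 0.99 and that of Emb -1.66, and both passed.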

How the results depend on the processing

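No alternative turned the direction of any of the 10 members. Where only the threshold, the eBayes settings or the set of genes fitted changed, the differences stayed the same by design and could not turn. The same holds for the mean of probe sets in members with only 1. Of 190 comparisons of a member with an alternative, these included, 171 kept the main outcome, whether called or not called. In 15 a call was lost and in 4 one was gained. The number of genes called was 5486, and it was 2797 at an adjusted p under 0.01, 3337 over 5 arrays of high Xist signal (picked once values had been seen), and 3265 to 5613 when each array was left out in turn, with 3265 without control array 1 and 3586 without control array 2. Leaving out arrays called 4 to 7 members higher and 0 lower, with a median difference of 0.65 to 0.86. The median of the 10 was 0.54 after centring and 0.57 after quantile normalization, against 0.77, and the number called higher was 4 in each, against 6, where 8.43% and 11% of all genes were higher, against 17.4%. With the replicate number as a block over the shared numbers, which leaves out the array labelled Gata6 KO 4, 5937 genes and 7 members were called. Oat was added (adjusted p = 0.0323). Leaving out that array without a block also called 7 members, Oat among them (adjusted p = 0.0302). Deviations of arrays with the same number correlated at 0.10, 0.00087 and 0.13, against -0.15 to 0.071 for different numbers. The array labelled Gata6 KO 3 and control array 3 were also the arrays of low Xist signal, at 2.15 and 1.34. These values do not settle whether the numbers pair the samples, and the main fit treats the samples as unpaired. Over all probe sets 5 members were called, without Hk1 (adjusted p = 0.0644). Signal near the low end limits Maf in both groups, Ldha on the arrays labelled Gata6 KO, and Slc16a1 and Hk1 on the control arrays. It also limits the second probe set of Zfp36l1 on the control arrays and that of Yap1 in both groups.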
